A study of Mus musculus with 12 samples.

Results

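BAF-type and INO80-type chromatin remodellers are complexes that hold β-actin together with actin-related proteins, and their subunit genes were followed here in mouse neural progenitor cells (NPCs) in which β-actin was knocked down or in which Srf or its cofactor Mkl1 was introduced. The genes were taken from a list of 33 subunits, chosen by name with earlier results of these data known, out of 21154 named genes on the array. A probe was matched for 32 of the 33 genes, with 46 probes out of 55681 in all. Srcap, the ATPase of the SRCAP complex, had no matched probe, so its expression is not analysed here. The brightest probe of a gene, the one with the highest mean signal over the 12 arrays, stood for the gene, and the other probes are given beside it. Of the 32 brightest probes, 31 were well above background on all 12 arrays, and that of Actl6b on 6.

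The NPCs had been made from mouse pluripotent stem cells by differentiation in culture and were kept on gelatin with EGF and bFGF. Total RNA was labelled with 1 dye and hybridized to Agilent arrays, 2 arrays per group. In the overexpression experiment cells received a retrovirus with EGFP (the control), Mkl1 or Srf. In the knockdown experiment a retroviral hairpin that targets EGFP served as the control (shEGFP), and a pair of hairpins, shActb_1 and shActb_2, targeted the β-actin gene Actb. Per the study's methods, transduced cells were selected with puromycin and the NPCs were of the line NSEB5-2C, made from embryonic stem cells, or N31, made from induced pluripotent stem cells that had been derived from NSEB5-2C. Both carry a blasticidin resistance gene at Oct4, and N31 also doxycycline-inducible reprogramming factors. Which line each array came from is not given in the sources used here. The study describes duplicates of the Actb knockdown as technical, and nothing in the labels says that other duplicates came from separate cultures, so p-values measure the spread between arrays. The 3 overexpression groups lay on slide 1, shEGFP and shActb_1 on slide 2 and shActb_2 alone on slide 3, so a difference of shActb_2 from the other groups cannot be told apart from a difference of slide.

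Remodellers use ATP to move, eject or exchange nucleosomes. BAF-type complexes are built around the ATPase Smarca4 (Brg1) or Smarca2 (Brm), while INO80, SRCAP and TIP60-EP400 complexes have their own ATPases and share the Ruvbl proteins. Actin binds these complexes as a monomer next to an actin-related protein. In the mouse brain, progenitors are known for BAF complexes with Actl6a, Phf10 and Ss18, and neurons for complexes in which Actl6b, Dpf1 or Dpf3, and Ss18l1 take their places.

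Levels below are log2 of the processed signal minus the 75th percentile of the array, so that 0 is the 75th percentile, and a level is compared only between arrays and never between probes. The targeted genes were read first. Actb was at 8.74 and 8.75 in shEGFP, 8.23 and 8.2 in shActb_1, and 8.12 and 8.06 in shActb_2. It fell by 0.53 with shActb_1 (SE 0.05, adjusted p = 0.00128, limma) and by 0.65 with shActb_2 (SE 0.05, adjusted p = 0.000196, limma). Srf went against its label: its brighter probe read 2.45 and 2.87 in EGFP and 1.2 and 1.32 on the arrays labelled Srf, and its other probe was lower there as well. Where these probes lie relative to the introduced reading frame was not determined, so these are called the arrays labelled Srf and the directions read from them are subject to that doubt. Acta2 (smooth muscle actin) and Cnn1 (calponin), known targets of Srf, ran the way the label says. Acta2 was at -0.61 and -0.48 in EGFP and 2.75 and 2.91 on the arrays labelled Srf, a rise of 3.37 (SE 0.08, adjusted p = 2.54e-06, limma), and Cnn1 rose by 1.14 (SE 0.07, adjusted p = 5.18e-05, limma). Mrtfa, the gene of Mkl1, did not pass on the Mkl1 arrays: its brighter probe was at 3.63 and 3.31 in EGFP and 3.72 and 3.56 with Mkl1 (difference 0.17, adjusted p = 0.312, limma), and its other probe gave 0.20 (adjusted p = 0.12, limma). Acta2 and Cnn1 rose there by 6.93 and 6.56 (adjusted p = 2.9e-08 and 2.89e-08, limma). Of 10 progenitor markers, 7 were well above background on all 12 arrays, Nes (nestin) and Vim (vimentin) among them, and Olig2 was on 1 array. Between the 2 arrays of a group the correlation over probes was 0.993 to 0.998. The EGFP arrays, the control of both overexpression comparisons, stood furthest apart. Of their probes 2.74% differed over 2-fold, beside 0.499% to 1.54% in the other groups. The median difference of the subunit genes was 0.171 there, beside 0.045 to 0.077.

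Changes in the subunit genes were small, and the share that passed the test was near the share of all genes in each comparison. On the arrays labelled Srf, 4 genes rose and 6 fell of 32 tested (31.25%), while 33.9% of all named genes tested passed, 17.4% higher and 16.5% lower (adjusted p under 0.05, limma, over all probes tested). With Mkl1, 5 rose and 3 fell of 31 (25.8%), beside 29% of all genes, 17.7% higher and 11.3% lower. With shActb_1, 2 rose and 1 fell of 32 (9.38%), beside 14% of all genes, 7.79% higher and 6.17% lower. With shActb_2, 14 rose and 2 fell of 32 (50%), beside 44.5%. The rises with shActb_2 made up 43.75% of the subunit genes and 28.2% of all genes, and the falls 6.25% and 16.3%. None of the subunit genes passed the test and also changed over 2-fold in these 4 comparisons, where 7.01%, 3.84%, 2.4% and 5.76% of all genes did, in the same order. At an unadjusted p under 0.05 (limma) the counts of subunit genes were 15, 12, 10 and 18. Among all named genes tested they were 7410 of 15671, 6983 of 15642, 4969 of 15821 and 8454 of 15854, in the same order. Their median log2 fold change was -0.0022 on the arrays labelled Srf, 0.046 with Mkl1, 0.101 with shActb_1 and 0.247 with shActb_2, beside medians over all named genes of -0.0090, 0.019, 0.024 and 0.069.

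**Figure D1:**
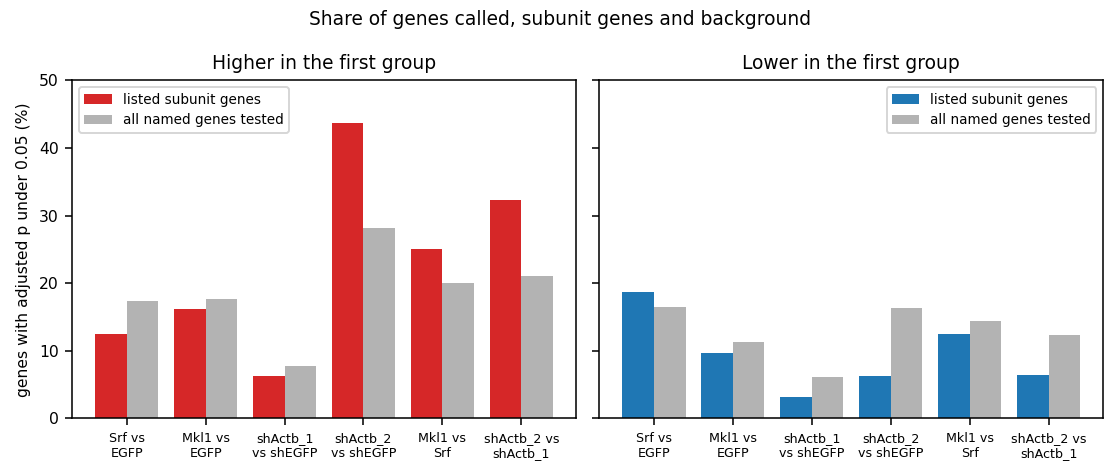
Share of genes with an adjusted p under 0.05 (%, vertical axis from 0) in 6 comparisons, coloured bars for the listed subunit genes and grey bars for all named genes tested, higher in the left panel and lower in the right. The largest gap among the bars is for genes higher with shActb_2 against shEGFP, 43.75% of subunit genes and 28.2% of all genes.

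The counts rest on a spread shared by all 12 arrays. With the spread taken from the 4 compared arrays only, none passed on the arrays labelled Srf, with Mkl1 or with shActb_1 (limma, 4, 7 and 5 at an unadjusted p under 0.05), where 8.82%, 0.55% and 4.89% of all genes did, and 14 passed with shActb_2, beside 40.1%. Under quantile normalization 9 of 32 passed with shActb_2, a share below the 35.9% of all genes, and 1 rose and 1 fell with shActb_1, where the rises among all genes called went from 55.8% to 45.1%. The Srf and Mkl1 comparisons share the EGFP arrays and the hairpins share the shEGFP arrays, so their values are given side by side and a gene's changes in them are not independent of each other.

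**Figure D2:**
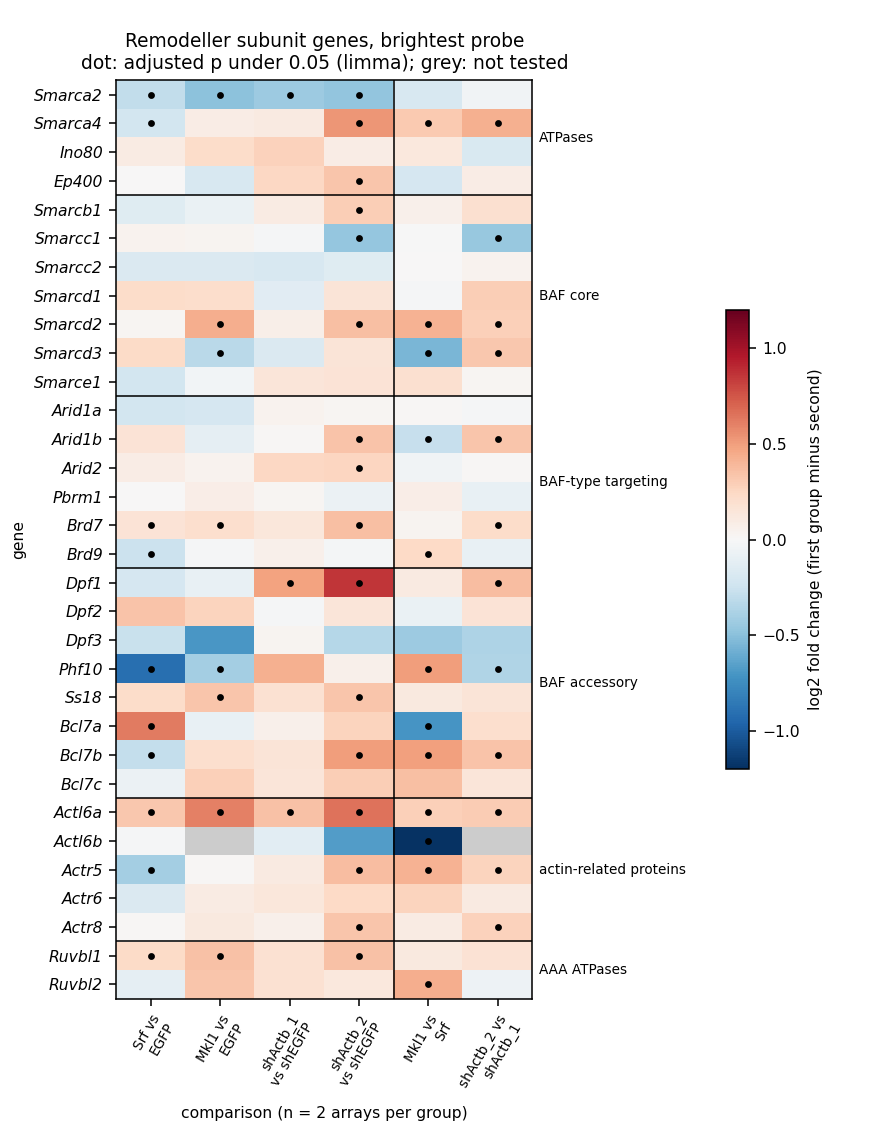
Log2 fold change (colour, first group minus second) of the 32 subunit genes with a probe in 6 comparisons, rows grouped by role, 2 arrays per group, with a dot where the adjusted p was under 0.05 (limma) and grey where the probe was not tested. Actl6a is red and Smarca2 blue with a dot in all 4 treatment comparisons, and 12 genes have no dot in any of the 4.

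Actl6a (NM_019673), the actin-related protein of progenitor BAF complexes that is also a subunit of INO80 and TIP60-EP400 complexes, rose in all 4 comparisons. Its level was 3.17 and 3.36 in EGFP, 3.81 and 3.92 with Mkl1, and 3.60 and 3.57 on the arrays labelled Srf. In the knockdown experiment it was 3.22 and 3.26 in shEGFP, 3.58 and 3.60 with shActb_1, and 3.85 and 3.93 with shActb_2. Every treated array was above every array of its control, and Mkl1 and shActb_2 stood highest in their experiments. The log2 fold change was 0.60 with Mkl1 (1.52-fold, SE 0.08, adjusted p = 0.00254, limma) and 0.65 with shActb_2 (1.57-fold, SE 0.08, adjusted p = 0.000879, limma). It was 0.32 on the arrays labelled Srf (SE 0.08, adjusted p = 0.0222, limma) and 0.35 with shActb_1 (SE 0.08, adjusted p = 0.0338, limma). Of the alternatives run, the call was kept under 22 of 22 with shActb_2 and 22 of 23 with Mkl1, but under 12 of 23 with shActb_1. These alternatives, here and below, are not independent checks. A term for slide, where fitted, repeats the main fit, since each group lay on a single slide. Leaving out an array of a group not compared changes only the spread, and does so alike for either array of that group.

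Smarca2 (NM_026003), the Brm ATPase, was the other gene that passed in all 4 comparisons, and it fell in each. Levels were -0.29 and -0.46 in EGFP, -0.82 and -0.90 with Mkl1, and -0.60 and -0.73 on the arrays labelled Srf. They were -0.21 and -0.18 in shEGFP, -0.63 and -0.62 with shActb_1, and -0.71 and -0.63 with shActb_2. No treated array reached the level of a control array, and the treated groups of an experiment lay closer to each other than to the control. Smarca2 fell by 0.49 with Mkl1 (1.40-fold, SE 0.08, adjusted p = 0.00561, limma), by 0.29 on the arrays labelled Srf (SE 0.08, adjusted p = 0.0308, limma), by 0.43 with shActb_1 (SE 0.08, adjusted p = 0.0155, limma) and by 0.47 with shActb_2 (1.39-fold, SE 0.08, adjusted p = 0.0031, limma). The call was kept under 22 of 22 alternatives with shActb_2, 21 of 23 with Mkl1, 17 of 23 with shActb_1 and 14 of 23 on the arrays labelled Srf.

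**Figure D3:**
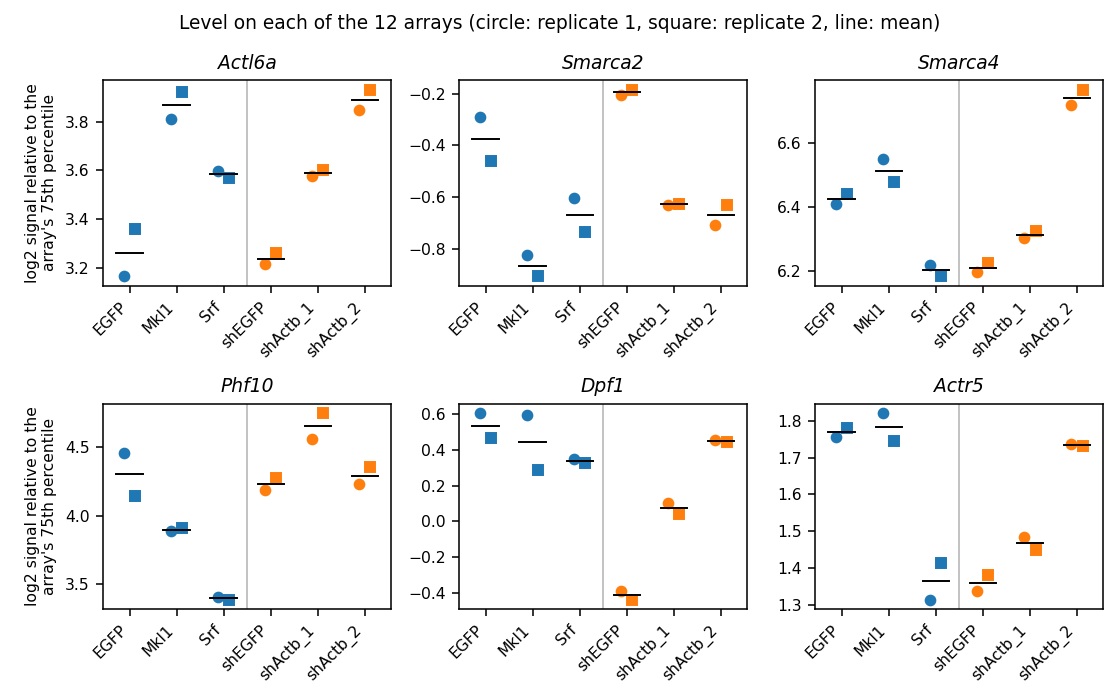
Level (log2 signal relative to the array's 75th percentile, vertical axis not from 0) of 6 subunit genes on each of the 12 arrays, circles for replicate 1, squares for replicate 2 and lines for means of 2, blue for the overexpression and orange for the knockdown experiment. Actl6a is higher and Smarca2 lower than the control in every treated group, and Phf10 is lowest on the arrays labelled Srf.

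The 250 bases before the start site of these 2 genes, the only ones to pass in every treatment comparison, are shown from RefSeq (build GRCm38.p6), 5′ to 3′ on the strand of the gene. Capitals mark matches, on either strand, to the GC box (GGGCGG) or to an ETS-type motif (CCGGAAG). The Actl6a promoter is chr3:32708296-32708545, plus strand, and that of Smarca2 chr19:26604910-26605159, plus strand.
Actl6a: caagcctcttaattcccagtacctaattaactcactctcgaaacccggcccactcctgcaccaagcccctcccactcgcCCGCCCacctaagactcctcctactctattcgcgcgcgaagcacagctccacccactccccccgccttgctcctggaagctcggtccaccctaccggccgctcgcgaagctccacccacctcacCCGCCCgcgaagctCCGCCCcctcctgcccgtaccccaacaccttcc
Smarca2: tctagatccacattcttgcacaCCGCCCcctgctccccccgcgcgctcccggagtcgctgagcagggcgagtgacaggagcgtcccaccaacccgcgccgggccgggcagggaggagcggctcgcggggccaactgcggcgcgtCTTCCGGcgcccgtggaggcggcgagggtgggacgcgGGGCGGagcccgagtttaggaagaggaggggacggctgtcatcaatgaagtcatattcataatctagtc
The Actl6a window holds 3 GC box matches and that of Smarca2 holds 2 with 1 ETS-type match. A window was found for 27 of the 33 genes, Srcap among them. A gene can have several windows. The GC box was in at least 1 window of 21 of the 27 genes, and in at least 1 window of 35.4% of all 27025 genes with one (32.7% of all 32851 windows of this length), and the median GC content was 67.4% for the subunit genes and 52.4% for all. The CArG box, the motif bound by Srf, was in 1.62% of all genes with a window (1.47% of all windows) and in none of these 27 genes, which says only that these letters are not in these windows.

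Phf10 and Dpf1 fill the same place in progenitor and in neuronal BAF complexes. Against the controls, Phf10 fell on the arrays labelled Srf and with Mkl1, and Dpf1 rose with both hairpins. Whether their responses differ between the experiments was not tested. Phf10 (NM_024250), a PHD-finger protein that marks progenitor and PBAF complexes, was at 4.46 and 4.15 in EGFP, 3.88 and 3.91 with Mkl1, and 3.41 and 3.38 on the arrays labelled Srf. It read 4.19 and 4.27 in shEGFP, 4.56 and 4.75 with shActb_1, and 4.23 and 4.36 with shActb_2. The arrays labelled Srf were lowest of all, Mkl1 lay between them and EGFP without overlap, and shActb_2 overlapped with shEGFP. Phf10 fell by 0.91 on the arrays labelled Srf (1.88-fold, SE 0.11, adjusted p = 0.00116, limma), the largest fall of a subunit gene that passed in a treatment comparison. This rank takes the Srf label as given, and with that direction turned the change would be a rise of the same size. With that comparison left out, the largest such fall was that of Smarca2 with Mkl1 (-0.49). With Mkl1 it fell by 0.41 (SE 0.11, adjusted p = 0.0415, limma), a call kept under 9 of 23 alternatives. Its change was 0.43 with shActb_1 (SE 0.11, adjusted p = 0.0589, limma) and 0.06 with shActb_2 (SE 0.11, adjusted p = 0.687, limma), neither past the test.

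Dpf1 (NM_013874), the neuronal PHD-finger subunit, was at -0.39 and -0.44 in shEGFP, 0.10 and 0.04 with shActb_1, and 0.45 and 0.44 with shActb_2. The 3 groups did not overlap and stood in that order. It rose by 0.49 with shActb_1 (1.40-fold, SE 0.10, adjusted p = 0.0255, limma) and by 0.86 with shActb_2 (1.82-fold, SE 0.10, adjusted p = 0.000781, limma), the largest rise in the list with the Srf label taken as given. Its second probe gave 0.45 with shActb_1 (adjusted p = 0.0513, limma) and 0.92 with shActb_2 (adjusted p = 0.000941, limma). In the overexpression experiment Dpf1 was at 0.61 and 0.46 in EGFP, 0.59 and 0.29 with Mkl1, and 0.35 and 0.33 on the arrays labelled Srf, with changes of -0.09 and -0.20 that did not pass. The level with shActb_2 was within the range of the overexpression experiment, whose arrays lay on another slide.

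The promoters of Phf10 and Dpf1 are shown because, with the Srf label taken as given, these forms of one place had the largest fall and the largest rise in the list against a control. With that direction turned, the change of Phf10 (-0.91 as labelled) would be a larger rise than that of Dpf1 (0.86). The Phf10 window is chr17:14961261-14961510, minus strand, and the Dpf1 window chr7:29303755-29304004, plus strand, in GRCm38.p6, with GC box (GGGCGG) and CCAAT matches on either strand in capitals. Neighbouring GC box matches overlap in Phf10.
Phf10: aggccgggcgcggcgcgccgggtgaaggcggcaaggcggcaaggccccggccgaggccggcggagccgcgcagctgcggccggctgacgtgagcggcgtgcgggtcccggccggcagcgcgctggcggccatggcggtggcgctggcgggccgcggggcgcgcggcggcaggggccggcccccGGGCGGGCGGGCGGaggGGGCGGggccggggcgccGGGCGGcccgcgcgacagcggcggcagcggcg
Dpf1: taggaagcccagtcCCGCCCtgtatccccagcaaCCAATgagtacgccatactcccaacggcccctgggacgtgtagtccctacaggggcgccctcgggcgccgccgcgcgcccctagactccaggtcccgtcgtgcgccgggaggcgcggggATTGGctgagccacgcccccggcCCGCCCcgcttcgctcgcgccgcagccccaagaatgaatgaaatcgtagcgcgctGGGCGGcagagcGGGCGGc
Phf10 holds 5 GC box matches and no CCAAT, and Dpf1 holds 4 and 2. CCAAT was in at least 1 window of 8 of the 27 genes and of 37.5% of all genes (33.8% of all windows).

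The other members of this place did not pass in any treatment comparison. Dpf2 (NM_001291078), the widely used form, was at 4.61 and 5.02 in EGFP, 5.10 and 5.06 with Mkl1, 5.16 and 5.15 on the arrays labelled Srf, 4.99 and 4.98 in shEGFP, 5.0 and 4.94 with shActb_1, and 5.10 and 5.16 with shActb_2. The lower EGFP array set it apart, and its changes ran from -0.02 to 0.34. Dpf3 (NM_058212), another neuronal and muscle form, was dim, at -4.06 and -4.58 in EGFP, -4.93 and -5.12 with Mkl1, -4.15 and -5.03 on the arrays labelled Srf, -4.32 and -5.04 in shEGFP, -4.69 and -4.60 with shActb_1, and -4.87 and -5.17 with shActb_2. Its SE of 0.34 was the widest of the genes tested in all 4 comparisons, and the largest of its changes was -0.70 with Mkl1 (adjusted p = 0.183, limma).

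Actl6b (NM_031404), the neuronal counterpart of Actl6a, was at or near background. Its level was -4.40 and -5.34 in EGFP, -5.96 and -6.18 with Mkl1, -4.77 and -4.99 on the arrays labelled Srf, -4.85 and -5.40 in shEGFP, -5.31 and -5.20 with shActb_1, and -5.99 and -5.61 with shActb_2. It was well above background on 1 of 2 EGFP arrays, both arrays labelled Srf, both shEGFP arrays and 1 of 2 shActb_1 arrays, and on no array of Mkl1 or shActb_2. Where one group was detected on both arrays and the other on neither, only a bound can be given, set by the lowest signal well above background on each dim array. By it, the arrays labelled Srf were at least 1.42-fold higher than Mkl1 (adjusted p = 0.0288, limma, kept under 15 of 22 alternatives), and shEGFP was at least 1.48-fold higher than shActb_2 (adjusted p = 0.126, limma, not past the test). The call between Srf and Mkl1 was lost without any 1 of their 4 arrays, and with normexp background correction the log2 difference, Mkl1 minus Srf, was -0.27 in place of -1.19, so the bound holds for the processed signal only.

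Ss18 (NM_009280), the subunit of progenitor complexes, was at 5.05 and 5.07 in EGFP, 5.36 and 5.43 with Mkl1, and 5.22 and 5.33 on the arrays labelled Srf. It was at 4.88 and 5.04 in shEGFP, 5.14 and 5.15 with shActb_1, and 5.25 and 5.34 with shActb_2. All treated arrays were above their controls. Ss18 rose by 0.33 with Mkl1 (SE 0.07, adjusted p = 0.0191, limma) and by 0.33 with shActb_2 (SE 0.08, adjusted p = 0.0104, limma). Its second probe gave 0.03 with Mkl1 and 0.45 with shActb_2 (adjusted p = 0.00251, limma), so the rise with Mkl1 was seen at 1 probe. Ss18l1, its neuronal partner and not a member of the list, rose by 0.29 with shActb_2 (SE 0.09, adjusted p = 0.0354, limma).

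**Figure D4:**
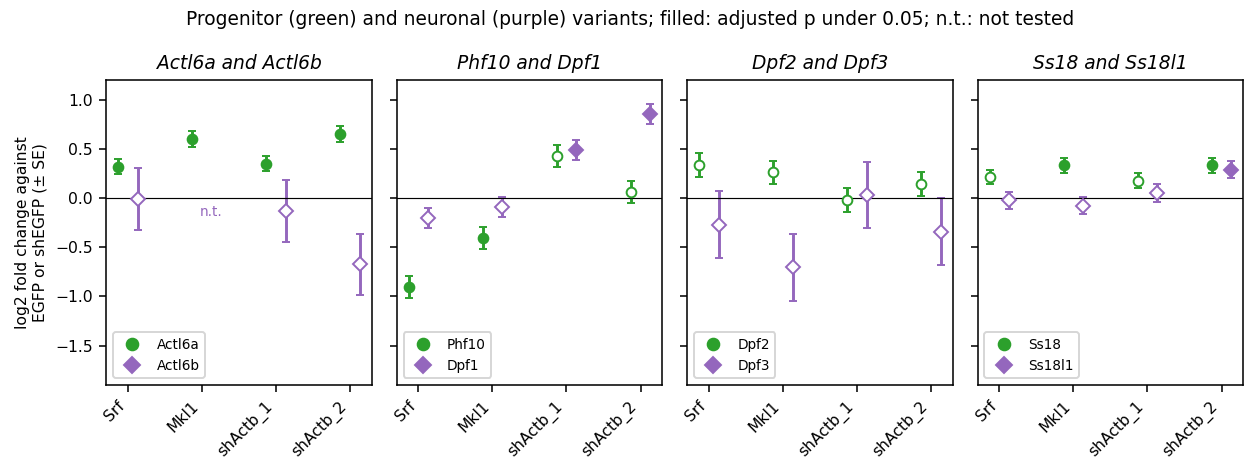
Log2 fold change against EGFP or shEGFP (vertical axis, bars are SE, 2 arrays per group) of progenitor forms (green circles) and neuronal forms (purple diamonds) in 4 treatments, filled where the adjusted p was under 0.05 (limma) and n.t. where not tested. Actl6a is above 0 in all 4, Phf10 is below 0 on the arrays labelled Srf and with Mkl1, and Dpf1 is above 0 with both hairpins.

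Neuronal markers were measured beside these forms, since fewer cells of a type and less RNA per cell cannot be told apart in bulk RNA. Of 8 neuron markers, 5 were well above background on all 12 arrays and none on no array. Their summed signal, relative to the 75th percentile, was 12.8 to 13.7 in EGFP, 7.98 to 8.90 with Mkl1, and 10.1 to 10.8 on the arrays labelled Srf. In the knockdown experiment it was 13.0 to 14.9 in shEGFP, 9.50 to 10.1 with shActb_1 and 8.99 to 9.79 with shActb_2. The sum was lower in all 4 treated groups. Snap25 alone made up 34.4% to 70.7% of it. Without Snap25 the sum was 7.68 to 9.02 in EGFP, 3.09 to 3.56 with Mkl1 and 3.17 to 3.43 on the arrays labelled Srf. It was 7.06 to 7.22 in shEGFP, 3.53 to 3.77 with shActb_1 and 3.68 to 3.78 with shActb_2. Single markers differed. Of 7 tested, 2 rose and 2 fell on the arrays labelled Srf, 0 and 3 with Mkl1, 1 and 2 with shActb_1, and 0 and 2 with shActb_2. Stmn2 and Map2 fell in each, while Tubb3 (neuronal tubulin) rose by 1.53 and Snap25 (a synaptic fusion protein) by 0.54 on the arrays labelled Srf, and Syt1 (a synaptic calcium sensor) rose by 0.77 with shActb_1 (adjusted p = 9.25e-05, 0.0282 and 0.0116, limma). Syt1 fell by 1.02 with Mkl1 (adjusted p = 0.0024, limma). The progenitor markers summed to 276 to 295 in EGFP, 322 to 335 with Mkl1, 256 to 264 on the arrays labelled Srf, 250.4 to 254 in shEGFP, 273 to 276 with shActb_1 and 364 to 366 with shActb_2. Vim made up 88.2% to 93.6% of this sum on each array, so it is close to the level of 1 probe. The other 9 markers summed to 17.6 to 22.4 in EGFP, 37.2 to 38.0 with Mkl1, 18.8 to 19.7 on the arrays labelled Srf, 21.7 to 22.4 in shEGFP, 26.6 to 28.7 with shActb_1 and 34.9 to 35.0 with shActb_2. The median log2 fold change of the progenitor markers with shActb_2 was -0.19, with 6 of 9 values negative, while both sums were higher there. Their members moved both ways: 2 rose and 1 fell of 8 tested on the arrays labelled Srf, 1 and 2 of 7 with Mkl1, 0 and 2 of 9 with shActb_1, and 3 and 1 of 9 with shActb_2. Nes rose by 1.16 with Mkl1 and by 0.80 with shActb_2, and Vim by 0.52 with shActb_2 (adjusted p = 0.00233, 0.00467 and 0.000616, limma). Sox2, a progenitor transcription factor, fell by 1.05 on the arrays labelled Srf, 0.89 with Mkl1 and 1.01 with shActb_1 (adjusted p = 0.00186, 0.00578 and 0.00584, limma). Fabp7, a fatty acid binding protein, rose by 0.93 on the arrays labelled Srf and fell by 0.66 with Mkl1 and 1.27 with shActb_1 (adjusted p = 0.0112, 0.0491 and 0.00725, limma). Pax6, another progenitor transcription factor, rose by 0.35 on the arrays labelled Srf and by 0.57 with shActb_2, where Sox1 fell by 0.73 (adjusted p = 0.0265, 0.00254 and 0.00794, limma).

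Fibroblast and smooth muscle markers, 6 genes of which 5 were well above background on all 12 arrays, summed to 171 to 172 in EGFP, 100.1 to 120.0 with Mkl1, 98.2 to 101 on the arrays labelled Srf, 135 to 144 in shEGFP, 103 to 114 with shActb_1 and 80.7 to 83.9 with shActb_2. Here too members differed: on the arrays labelled Srf the collagens Col1a2 and Col3a1 fell by 1.1 and 0.84, while Dcn (decorin) rose by 0.85 (adjusted p = 0.000243, 0.000474 and 0.000111, limma). Dcn fell by 1.79, 1.96 and 1.55 with Mkl1, shActb_1 and shActb_2. Myh11 (smooth muscle myosin) was not well above background in EGFP or shEGFP and passed as higher with Mkl1, on the arrays labelled Srf and with shActb_2. Astrocyte markers, 3 of 5 well above background on all 12 arrays, summed to 5.70 to 6.63 in EGFP, 3.32 to 3.96 with Mkl1, 7.50 to 7.89 on the arrays labelled Srf, 6.71 to 7.04 in shEGFP, 3.19 to 3.32 with shActb_1 and 3.61 to 3.94 with shActb_2. On the arrays labelled Srf 1 of 4 tested passed, Aldh1l1 (a folate enzyme), which rose by 0.78 (adjusted p = 0.00136, limma), and the other 3 had negative values. With Mkl1, shActb_1 and shActb_2, 0 rose and 1, 2 and 3 of 4 tested fell, Slc1a3 (a glutamate transporter) in each.

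Pluripotency markers, 4 genes of which 2 were well above background on all 12 arrays, summed to 0.607 to 0.709 in EGFP, 0.413 to 0.424 with Mkl1, 0.686 to 0.736 on the arrays labelled Srf, 0.694 to 0.754 in shEGFP, 0.438 to 0.492 with shActb_1 and 0.490 to 0.521 with shActb_2. The sum was lower than in the control without overlap with Mkl1 and with both hairpins. Nanog, a transcription factor of pluripotent cells, made up 62.6% to 81% of the sum and fell by 0.90 with Mkl1, 0.78 with shActb_1 and 0.64 with shActb_2 (adjusted p = 0.000923, 0.00235 and 0.00151, limma), the only one of the 4 to pass in these 3 comparisons. On the arrays labelled Srf Dppa5a alone passed, as higher by 0.46 (adjusted p = 0.028, limma).

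Of the oligodendrocyte markers, Mog, a myelin protein, rose by 0.70 on the arrays labelled Srf and by 0.66 with Mkl1 and fell by 0.78 with shActb_2 (adjusted p = 0.00208, 0.00426 and 0.00105, limma). The part of these marker shifts in the results for the subunit genes was not tested.

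Of the other ATPases, Smarca4 passed in 2 treatment comparisons, Ep400 in 1 and Ino80 in 0. Smarca4 (NM_001174078), the Brg1 ATPase, was at 6.41 and 6.44 in EGFP, 6.55 and 6.48 with Mkl1, and 6.22 and 6.19 on the arrays labelled Srf. It was at 6.20 and 6.23 in shEGFP, 6.30 and 6.33 with shActb_1, and 6.72 and 6.77 with shActb_2. The arrays labelled Srf lay below EGFP and shActb_2 above every other array. Smarca4 fell by 0.22 on the arrays labelled Srf (SE 0.05, adjusted p = 0.0217, limma) and rose by 0.53 with shActb_2 (1.44-fold, SE 0.06, adjusted p = 0.000494, limma). Its second probe also rose with shActb_2, by 0.51 (adjusted p = 0.00916, limma), but gave -0.03 on the arrays labelled Srf.

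Ep400 (NM_029337), the ATPase of the TIP60-EP400 complex, was at 1.35 and 1.31 in shEGFP, 1.49 and 1.67 with shActb_1, and 1.70 and 1.63 with shActb_2, after 1.66 and 1.41 in EGFP, 1.37 and 1.31 with Mkl1, and 1.64 and 1.43 on the arrays labelled Srf. It rose by 0.33 with shActb_2 (SE 0.11, adjusted p = 0.045, limma), a call kept under 11 of 22 alternatives. Ino80 (NM_026574), the ATPase of INO80, read -0.65 and -0.59 in EGFP, -0.34 and -0.45 with Mkl1, -0.54 and -0.49 on the arrays labelled Srf, -0.74 and -0.44 in shEGFP, -0.34 and -0.29 with shActb_1, and -0.49 and -0.51 with shActb_2. Its changes ran from 0.09 to 0.28 and none passed, and its second probe differed in sign in all 4 comparisons.

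Among the 7 core subunits of BAF, which form the body of the complex, Smarcd2 changed with Mkl1 and with shActb_2. Smarcd2 (NM_031878), a BAF60 protein that links the complex to transcription factors, was at 2.32 and 2.35 in EGFP, 2.74 and 2.81 with Mkl1, and 2.24 and 2.47 on the arrays labelled Srf. In the other experiment it was at 2.34 and 2.37 in shEGFP, 2.49 and 2.36 with shActb_1, and 2.70 and 2.72 with shActb_2. The Mkl1 and shActb_2 arrays stood above all others of their experiment. It rose by 0.44 with Mkl1 (1.36-fold, SE 0.09, adjusted p = 0.0116, limma) and by 0.36 with shActb_2 (SE 0.09, adjusted p = 0.0136, limma). Smarcd3, its muscle and neural relative, was at 2.33 and 2.54 in EGFP and at 2.15 and 2.07 with Mkl1. It fell by 0.33 (SE 0.10, adjusted p = 0.0492, limma) and kept the call under 8 of 23 alternatives. Smarcb1, a core subunit needed for nucleosome binding, rose by 0.29 with shActb_2 (SE 0.07, adjusted p = 0.0119, limma).

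The brightest of 3 probes of Smarcc1, a scaffold subunit, was at 4.35 and 4.35 in shEGFP, 4.45 and 4.23 with shActb_1, and 3.94 and 3.85 with shActb_2. It fell by 0.46 with shActb_2 (SE 0.14, adjusted p = 0.0358, limma), while the other 2 probes gave 0.27 and -0.09 and did not pass. One of those 2 was higher by 0.40 on the arrays labelled Srf (adjusted p = 0.0075, limma) and by 0.39 with Mkl1 (adjusted p = 0.0117, limma), where the brightest gave 0.04 in both. The probes of Smarcc1 therefore disagreed, and its direction is uncertain. Smarcc2, Smarcd1 and Smarce1 did not pass, with changes from -0.22 to 0.22.

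Of the 6 subunits that set the type of BAF complex, Brd7, a bromodomain protein of PBAF, passed in 3 treatment comparisons. Brd7 (NM_012047) was at 4.62 and 4.62 in EGFP, 4.79 and 4.85 with Mkl1, 4.78 and 4.79 on the arrays labelled Srf, 4.52 and 4.55 in shEGFP, 4.65 and 4.69 with shActb_1, and 4.91 and 4.89 with shActb_2. Each treated array was above its controls, by small steps. It rose by 0.36 with shActb_2 (SE 0.05, adjusted p = 0.00175, limma), a call kept under 22 of 22 alternatives. The rises of 0.20 with Mkl1 (adjusted p = 0.0305, limma) and 0.17 on the arrays labelled Srf (adjusted p = 0.0497, limma) were kept under 9 and 8 of 23. Brd9, the bromodomain protein of the non-canonical complex, fell by 0.25 on the arrays labelled Srf (SE 0.07, adjusted p = 0.0378, limma), kept under 11 of 23.

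Arid1b, an alternative to Arid1a in canonical BAF, rose by 0.34 with shActb_2 (SE 0.08, adjusted p = 0.01, limma). Its other 2 probes gave 0.20 and 0.17 there, and on the arrays labelled Srf its 3 probes gave 0.16, -0.36 (adjusted p = 0.0169, limma) and 0.43. Arid2, of PBAF, rose by 0.26 with shActb_2 (SE 0.08, adjusted p = 0.0417, limma), and another of its probes was higher by 0.61 on the arrays labelled Srf (adjusted p = 0.0035, limma), where the brightest gave 0.08. Arid1a and Pbrm1 did not pass at their brightest probes. The second probe of Pbrm1, the polybromo subunit of PBAF, was higher by 0.30 with shActb_2 (adjusted p = 0.0123, limma), where the brightest gave -0.07.

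**Figure D5:**
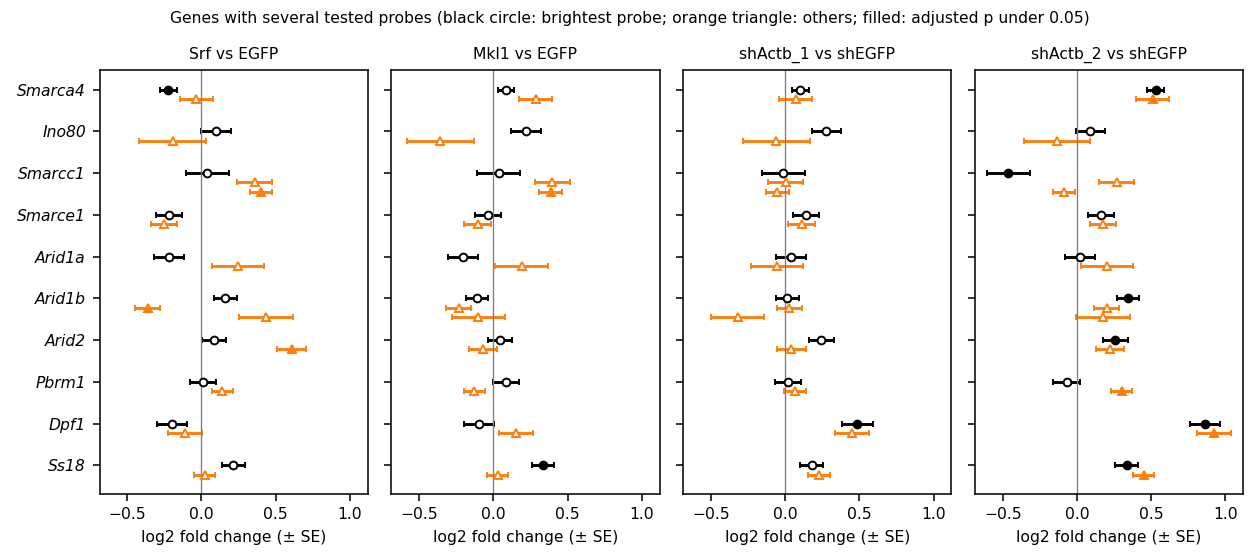
Log2 fold change (horizontal axis, bars are SE) at each tested probe of the 10 genes with several tested probes in 4 comparisons, black circles for the brightest probe and orange triangles for the others, filled where the adjusted p was under 0.05 (limma). The 2 probes of Dpf1 lie together in the hairpin panels, while those of Smarcc1, Arid1b, Arid2, Ino80 and Pbrm1 lie apart in at least 1 panel.

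Over the 10 genes with several tested probes and 6 comparisons, another probe disagreed with the brightest in 10 of 60 cases, in 5 genes, where disagreement means a log2 fold change that differed by over 0.5 or an opposite sign with at least 1 adjusted p under 0.05.

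The Bcl7 proteins are small accessory subunits of BAF. Bcl7a (NM_029850) was at -2.03 and -1.52 in EGFP, -1.93 and -1.80 with Mkl1, and -1.15 and -1.15 on the arrays labelled Srf. The EGFP arrays lay apart from each other and below both arrays labelled Srf. It rose by 0.62 there (1.54-fold, SE 0.15, adjusted p = 0.022, limma), the largest rise among the subunit genes in that comparison, and did not pass in the other treatment comparisons. Bcl7b (NM_009745) was at 1.81 and 1.78 in EGFP, 2.05 and 1.94 with Mkl1, 1.51 and 1.5 on the arrays labelled Srf, 1.49 and 1.41 in shEGFP, 1.62 and 1.58 with shActb_1, and 2.02 and 1.88 with shActb_2. It fell by 0.29 on the arrays labelled Srf (SE 0.07, adjusted p = 0.0216, limma) and rose by 0.50 with shActb_2 (1.41-fold, SE 0.07, adjusted p = 0.00161, limma). Bcl7c did not pass, with changes from -0.07 to 0.30.

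Of the actin-related proteins of the INO80-type complexes, Actr5 fell on the arrays labelled Srf and both Actr5 and Actr8 rose with shActb_2. Actr5 (NM_175419), which is needed for nucleosome sliding by INO80, was at 1.76 and 1.78 in EGFP, 1.82 and 1.74 with Mkl1, and 1.31 and 1.41 on the arrays labelled Srf. It was at 1.34 and 1.38 in shEGFP, 1.48 and 1.45 with shActb_1, and 1.74 and 1.73 with shActb_2. Replicates lay close, and EGFP and Mkl1 overlapped. It fell by 0.40 on the arrays labelled Srf (1.32-fold, SE 0.06, adjusted p = 0.00243, limma, kept under 22 of 23 alternatives) and rose by 0.37 with shActb_2 (1.3-fold, SE 0.06, adjusted p = 0.00261, limma, kept under 22 of 22). Actr8, another actin-related protein of INO80, rose by 0.33 with shActb_2 (SE 0.08, adjusted p = 0.0105, limma). Actr6, of the SRCAP complex, did not pass, with changes from -0.17 to 0.24.

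Ruvbl1 and Ruvbl2 are AAA ATPases that together form a ring at the core of INO80, SRCAP and TIP60-EP400 complexes. Ruvbl1 (NM_019685) was at 6.03 and 6.14 in EGFP, 6.39 and 6.48 with Mkl1, 6.29 and 6.35 on the arrays labelled Srf, 6.01 and 6.06 in shEGFP, 6.24 and 6.19 with shActb_1, and 6.37 and 6.41 with shActb_2. All treated arrays were above their controls. It rose by 0.35 with Mkl1 (1.27-fold, SE 0.06, adjusted p = 0.00937, limma), by 0.36 with shActb_2 (1.28-fold, SE 0.07, adjusted p = 0.00448, limma) and by 0.23 on the arrays labelled Srf (SE 0.06, adjusted p = 0.0348, limma). With shActb_1 the value was 0.18 (adjusted p = 0.146, limma). Ruvbl2 did not pass in any treatment comparison, with 0.33 with Mkl1 (adjusted p = 0.0534, limma) as the highest value among them.

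Mkl1 and the arrays labelled Srf were also set against each other. Of 32 genes tested, 8 were higher and 4 lower with Mkl1 (37.5%), while 34.4% of all named genes passed, 20% higher and 14.4% lower. Bcl7a was lower with Mkl1 by a log2 difference of -0.71 (SE 0.15, adjusted p = 0.0121, limma) and Smarcd3 by -0.55 (SE 0.10, adjusted p = 0.00488, limma). Phf10 was higher with Mkl1 by 0.50 (adjusted p = 0.0151), Bcl7b by 0.49 (adjusted p = 0.00211), Ruvbl2 by 0.43 (adjusted p = 0.016), Actr5 by 0.42 (adjusted p = 0.00195) and Smarca4 by 0.31 (adjusted p = 0.00519, limma). Actl6b was the only subunit gene that passed with a fitted change over 2-fold, beside 7.23% of all genes, and for it the bound above stands in place of the fitted value.

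The hairpins differed from each other in 12 of 31 genes (38.7%), 10 higher and 2 lower with shActb_2 (5 and 2 under quantile normalization), while 33.4% of all named genes passed, 21% higher and 12.4% lower. None of the 31 passed with a change over 2-fold, which 4.3% of all genes did. Smarca4 was higher with shActb_2 than with shActb_1 by 0.43 (SE 0.05, adjusted p = 0.00169, limma), Dpf1 by 0.37 (SE 0.10, adjusted p = 0.0269, limma) and Actl6a by 0.30 (SE 0.08, adjusted p = 0.0243, limma). For Smarca2 the difference was -0.04 (SE 0.08, adjusted p = 0.717, limma), and the hairpins' arrays overlapped. Slide and hairpin cannot be told apart in this comparison.

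Further subunits of the same complexes, remodellers without actin and genes known beside the neuronal switch were counted as neighbours of the list. Of 25 or 26 further subunits tested, 5 rose and 3 fell on the arrays labelled Srf, 3 and 2 with Mkl1, 0 and 0 with shActb_1 (limma, 1 at an unadjusted p under 0.05), and 11 and 3 with shActb_2, none over 2-fold. Of 32 remodellers without actin, 4 rose and 6 fell on the arrays labelled Srf, 7 and 5 with Mkl1, 3 and 1 with shActb_1, and 9 and 6 with shActb_2. In the same order 33.9%, 29%, 14% and 44.5% of all named genes tested passed, with 17.4%, 17.7%, 7.79% and 28.2% higher. These shares also stand beside the counts of the neuronal switch genes below. Smarca1, an ISWI ATPase, fell by 1.07 on the arrays labelled Srf, by 0.95 with Mkl1, by 1.0 with shActb_1 and by 1.15 with shActb_2 (adjusted p = 0.000272, 0.00102, 0.00119 and 0.000244, limma). Smarcal1, an annealing helicase of replication forks, fell by 1.76 on the arrays labelled Srf (adjusted p = 0.000167, limma). Chd5, a neuronal chromodomain remodeller, passed as lower there too (adjusted p = 0.00101, limma), but was not well above background on either array labelled Srf, so no fold is given. Among the genes beside the neuronal switch, Tubb3 rose by 1.53 on the arrays labelled Srf, the only one of this list to rise over 2-fold in a treatment comparison, and did not pass in the other 3. Map2, a dendritic protein, fell by 0.87 on the arrays labelled Srf, 1.49 with Mkl1, 1.27 with shActb_1 and 1.14 with shActb_2, and Stmn2, a microtubule regulator of axons, fell over 2-fold in all 4 treatment comparisons. Rest, the repressor of neuronal genes, and Ptbp2, a splicing factor, did not pass in any of the 4 at their brightest probes, although a second probe of Rest was higher by 0.31 on the arrays labelled Srf (adjusted p = 0.0107, limma). In all, 1 of 10 genes of this list rose and 2 fell on the arrays labelled Srf, 1 and 2 of 9 with Mkl1, 0 and 2 of 10 with shActb_1, and 2 and 2 of 10 with shActb_2.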

How the data were processed

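Cy3-labelled total RNA of mouse NPCs was hybridized to 12 one-colour Agilent arrays, 2 in each of 6 groups. The labels name a 4x44K format and the study's methods an 8x60K format, and the 62976 features of each deposited scanner file are those of the latter. Feature Extraction 11.5.1.1 made the intensity values that the authors deposited, a processed signal for each spot that is background-subtracted per the file headers. The authors also deposited a log2 table of the same arrays with 55819 rows, and it was used as an alternative after its values were matched to shifted log2 signals of the scanner files for 55681 probes. The authors' other data types are not used here. The summed signal of the oligodendrocyte markers is not reported here.

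From the processed signal, log2 values minus each array's 75th percentile were computed, control spots were left out and spots of one probe were averaged. A probe was tested where it was well above background on both arrays of at least 1 compared group. A single linear model with a mean for each group was fitted over the 12 arrays in limma 3.58.1 under R 4.3.3 (lmFit and eBayes), and p-values were adjusted by Benjamini-Hochberg over all probes tested in a comparison. Genes were named by matching probe accessions to a RefSeq table of build GRCm38.p6, used for names and promoters only, and 28026 of 55681 probes were named (50.3%). The brightest probe stood for a gene. Any listed gene could be named, with values on every array for the ATPases and the progenitor or neuronal forms, and the 3 largest rises and falls past the test in each treatment comparison were named. Genes of the neighbouring lists were named where they passed the test and 2-fold in a treatment comparison, and Rest, Ptbp2 and single cell type markers after their values were seen. The members and lists were chosen with earlier results of these data known. The number of arrays limits the precision, and no probe was saturated. The scripts were tested on simulated data.

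Alternatives were normexp background correction (offset 50, on median spot signals, since the mean is not used here), quantile normalization, other filters on dim probes, the compared arrays only, a variance trend with robust estimation, another probe rule, a fold criterion, the deposited log2 table, slide or replicate number as a block, and each array left out. Same-numbered arrays deviated together with r from 0.003287 to 0.2032 over probes. It was over 0.1 for Srf against EGFP (0.1797) and shActb_2 against shEGFP (0.2032) and under 0.1 in the other comparisons. The main fit took the numbers as names, and the replicate block was run as an alternative.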

Additional observations from a re-analysis of the deposited data

Results flagged for a closer look

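The response to Actb knockdown differed between the hairpins for 12 subunit genes of 31 in the direct test (limma, adjusted p under 0.05), a share of 38.7% beside 33.4% of all named genes. The count was 7 under quantile normalization, beside 28.5% of all genes, and 1 or 2 without any 1 of the 4 hairpin arrays, beside 14.3% to 20.7%. Relative to shActb_1, the log2 level with shActb_2 differed by 0.43 for Smarca4, 0.37 for Dpf1, 0.35 for Bcl7b, 0.33 for Arid1b, 0.33 for Smarcd3 and 0.30 for Actl6a. The difference was 0.29 for Smarcd2, 0.27 for Actr5, 0.27 for Actr8 and 0.22 for Brd7, while it was -0.45 for Smarcc1 and -0.36 for Phf10. Both hairpins are compared with the same shEGFP arrays, and shActb_2 lay alone on its slide, so hairpin and slide cannot be told apart. Of these genes, Smarca4 kept its call under 22 of 22 alternatives, Phf10 under 9 of 22 and Smarcc1, whose probes disagreed, under 8 of 22.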

How the results depend on the processing

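No subunit gene called in a comparison changed direction under any alternative run. In the order Srf, Mkl1, shActb_1, shActb_2, Mkl1 against Srf and shActb_2 against shActb_1, the counts of subunit genes past the test were 10, 8, 3, 16, 12 and 12. Leaving out each array in turn gave 2 to 14, 1 to 12, 0 to 4, 8 to 21, 4 to 14 and 1 to 16. The share of all named genes called moved over the same settings, from 18.5% to 39.4%, 11.0% to 37.8%, 4.92% to 20.4%, 23.5% to 52.4%, 20.1% to 42.6% and 14.3% to 42.5%. The Srf count was 2 without either array labelled Srf, 6 without EGFP replicate 1, either shEGFP or either shActb_1 array, and 14 without EGFP replicate 2. The Mkl1 count was 4 and 1 without Mkl1 replicate 1 and 2, 5 without any array labelled Srf or of the knockdown experiment, and 12 without EGFP replicate 2. For shActb_1 it was 0 without either shActb_1 array or shEGFP replicate 1, and 1 without shEGFP replicate 2 or either array labelled Srf. For shActb_2 it was 10 and 9 without shEGFP replicate 1 and 2, and 8 without shActb_2 replicate 2. For Mkl1 against Srf it was 5 without either Mkl1 array, and 4 and 6 without Srf replicate 1 and 2. For shActb_2 against shActb_1 it was 2 and 1 without shActb_1 replicate 1 and 2, and 2 without either shActb_2 array. With a lone array left in a group, that array is assumed to vary like the others. Without a filter on dim probes the counts were 3 for Srf, 4 for Mkl1, 0 for shActb_1 and 3 for shActb_2 against shActb_1 (limma, 12, 11, 6 and 13 at an unadjusted p under 0.05), with more probes to adjust over, beside 17.8%, 13.5%, 5.55% and 16.4% of all genes. With the compared arrays only they were 0, 0 and 0 for Srf, Mkl1 and shActb_1, 7 for Mkl1 against Srf and 5 for shActb_2 against shActb_1 (limma, 4, 7, 5, 15 and 15 at an unadjusted p under 0.05), with fewer arrays for the spread, and the last 2 stand beside 26.3% and 28.0% of all genes. Quantile normalization gave 9 for shActb_2, 7 for Mkl1 against Srf and 7 for shActb_2 against shActb_1, beside 35.9%, 32.2% and 28.5% of all genes, and the cause was not tested. A variance trend with robust estimation gave 5 for shActb_1, beside 20.9% of all genes. Among the genes tested, a change over 2-fold, whether or not an adjusted p under 0.05 was also asked for, was met by 0 in each comparison but Mkl1 against Srf, where it was met by 1, Actl6b. In Mkl1 against EGFP Actl6b was not tested, since neither group had it well above background on both arrays. With the replicate block the counts were 10, 6, 3, 16, 11 and 10, beside 34.5%, 29.3%, 14.1%, 44.8%, 34.2% and 34.0% of all genes. Since each group lay on a single slide, the slide block could not change a comparison within a slide, so its equal counts are no check on slide effects. It could not be fitted for shActb_2.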
